A study of Homo sapiens and Mus musculus with 20 samples.

Results

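The lower glycolysis enzymes carry out the later steps of glycolysis, from the splitting of fructose-1,6-bisphosphate to pyruvate. They were followed here as 10 genes listed by symbol for their place in the pathway, in a list drawn up with earlier results of these data known: ALDOA, ALDOC, TPI1, GAPDH, PGK1, PGAM1, BPGM, ENO1, ENO2 and PKM. All 10 were present in every gene list of the IMR90 experiments, which together held 17554 genes, of which 11994 were in all 3 lists. Bulk RNA sequencing of wild-type IMR90, a line of fibroblasts from human fetal lung that can be grown until it becomes senescent, gave 12 libraries in 6 groups of 2. The treatments were A485, an inhibitor of the acetyltransferase p300, MS-275, which inhibits the class I histone deacetylases, and pyruvate, which the study's text describes as added to senescent cells. Each treatment had its own untreated control, numbered Control2, Control3 and Control6 in that order. The labels give no dose, time or passage, and they do not say whether the 2 libraries of a group came from separate cultures, so p-values measure only the spread between these libraries, which may be technical.

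Aldolase splits the 6-carbon sugar into a pair of 3-carbon phosphates, which triosephosphate isomerase interconverts, and the steps that follow earn the ATP and NADH of the pathway. Several steps have isozymes encoded by separate genes: ALDOA is the muscle-type and widely expressed aldolase and ALDOC the brain-type one, while ENO1 is the ubiquitous enolase and ENO2 the neuronal one. Many of these genes are known targets of hypoxia-inducible factor (HIF), which binds a short core motif near their start sites, and the lactate made from their product is the precursor of histone lactylation.

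In the hg38 build the genes lie apart on 8 chromosomes, except for a cluster of 3 on chromosome 12. GAPDH is at chr12:6534512-6538374, TPI1 at chr12:6867119-6870948 and ENO2 at chr12:6913745-6923698. The others are ALDOA at chr16:30064164-30070457, ALDOC at chr17:28573115-28576948, PGK1 at chrX:77910739-78129295, PGAM1 at chr10:97426191-97433444, BPGM at chr7:134646811-134679816, ENO1 at chr1:8861000-8879190 and PKM at chr15:72199029-72231819.

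For the 6 genes on which the results below turn, the 250 bases before the listed RefSeq start site are shown (GRCh38.p14, gene strand, 5′ to 3′). The windows of GAPDH, PGK1, ENO1 and ENO2 lie inside the gene spans given above, which begin further upstream. They therefore stand before a start site within the annotated gene, and the bases before the outermost start of these genes were not searched. GAPDH and ENO1 are shown as the genes called with A485, ALDOC and ENO2 as the isozymes that differed most with MS-275, and PGK1 and BPGM for their values with pyruvate. Capitals mark ACGTG, the usual HIF core, and the related GCGTG, searched on both strands, so that CACGT and CACGC also appear in capitals and a CACGTG counts as 2 overlapping matches of ACGTG.
ALDOC, chr17:28576896-28577145, minus strand: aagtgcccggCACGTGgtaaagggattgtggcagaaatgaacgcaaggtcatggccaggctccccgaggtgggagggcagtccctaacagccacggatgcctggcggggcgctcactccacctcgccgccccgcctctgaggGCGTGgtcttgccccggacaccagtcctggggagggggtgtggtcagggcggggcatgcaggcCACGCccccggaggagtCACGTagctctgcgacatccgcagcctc
GAPDH, chr12:6535014-6535263, plus strand: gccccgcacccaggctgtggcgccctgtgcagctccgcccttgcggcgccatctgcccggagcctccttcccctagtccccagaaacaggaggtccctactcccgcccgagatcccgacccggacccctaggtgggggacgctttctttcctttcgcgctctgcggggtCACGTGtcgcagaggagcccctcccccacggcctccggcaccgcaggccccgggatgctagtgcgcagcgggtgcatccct
PGK1, chrX:78103998-78104247, plus strand: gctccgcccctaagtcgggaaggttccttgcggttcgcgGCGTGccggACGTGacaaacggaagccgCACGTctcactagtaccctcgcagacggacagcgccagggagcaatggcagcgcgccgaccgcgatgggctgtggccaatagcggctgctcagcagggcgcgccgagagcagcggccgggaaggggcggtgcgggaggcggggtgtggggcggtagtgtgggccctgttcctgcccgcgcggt
BPGM, chr7:134646603-134646852, plus strand: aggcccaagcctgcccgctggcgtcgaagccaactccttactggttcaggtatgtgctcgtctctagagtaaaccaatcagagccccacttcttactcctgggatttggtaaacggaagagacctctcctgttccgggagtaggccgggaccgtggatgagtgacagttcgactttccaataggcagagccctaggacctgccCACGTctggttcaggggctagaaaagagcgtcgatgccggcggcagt
ENO1, chr1:8878687-8878936, minus strand: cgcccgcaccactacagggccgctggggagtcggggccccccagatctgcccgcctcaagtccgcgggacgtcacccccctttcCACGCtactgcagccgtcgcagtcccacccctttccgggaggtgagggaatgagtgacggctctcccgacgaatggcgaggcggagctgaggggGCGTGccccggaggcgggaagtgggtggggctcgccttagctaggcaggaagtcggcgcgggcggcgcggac
ENO2, chr12:6914330-6914579, plus strand: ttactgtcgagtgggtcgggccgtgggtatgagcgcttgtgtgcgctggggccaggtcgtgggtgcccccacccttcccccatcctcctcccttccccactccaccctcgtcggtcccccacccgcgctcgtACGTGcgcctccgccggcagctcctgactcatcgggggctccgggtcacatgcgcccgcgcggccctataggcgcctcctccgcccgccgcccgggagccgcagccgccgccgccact
ACGTG was found in at least 1 window of 7 of the 10 genes (9 of their 13 windows, since ALDOA has 3 listed start sites and TPI1 has 2), against 18.5% of all 35116 windows of the table. GCGTG was found in 4 of the 13 windows, 1 in each of 4 genes, against 32.2% of all windows. Among the windows shown, ALDOC held 3 matches of ACGTG, PGK1 and GAPDH held 2, ENO2 and BPGM held 1, and ENO1 held none of ACGTG and 2 of GCGTG. A match is a description of these letters and was not tied to any binding measurement.

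Read depth ranged from 24179065 to 46971227 recovered reads a library, and the 10 genes took 0.499% to 2.34% of them. The members took 0.862% and 0.768% of reads in Control2 and 0.537% and 0.499% with A485. They took 0.682% and 1.14% in Control3 and 0.867% and 1.61% with MS-275. They took 2.25% and 2.34% in Control6 and 1.35% in both pyruvate libraries. The share was therefore lower with A485 and with pyruvate in every library, and in the MS-275 experiment it was higher with the treatment within each replicate number but differed more between the numbers. All 9 fibroblast markers examined were listed in every experiment, while of the 6 epithelial, 5 endothelial, 5 immune and 5 muscle markers at most 3 of any list were listed.

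Levels between genes were compared per kilobase of the canonical transcript and only within an experiment, because each table was normalised on its own. In Control2 the order was GAPDH, with a mean of 87462 normalised reads per kilobase, then PKM (50467), ENO1 (35572), TPI1 (20763), PGAM1 (11807), PGK1 (5037), ENO2 (970), BPGM (819), ALDOC (426) and ALDOA (191). Within each library of Control2 and of Control3 the 10 genes held these same places. In both Control6 libraries GAPDH to ENO2 held the first 7 places in the same order, and BPGM was last, with 172 and 214 reads per kilobase. The ranges of ENO2 and BPGM over the libraries of a group overlapped in Control2 and Control3, although ENO2 was the higher of the 2 in each library (799 against 650 and 1142 against 988 in Control2, 851 against 730 and 1365 against 1168 in Control3). The libraries of Control3 also spread widely enough for ENO1 to overlap with PKM and TPI1, TPI1 with PGAM1, and ALDOC with BPGM. These orders rest on the transcript length used. PGK1 was taken at 4812 bases, while its other annotated protein-coding transcript has 2405, and orders by other transcripts were not computed.

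ALDOA needs a caution. Its level ranked between 7671 and 9948 among 16417 genes in the libraries of the A485 experiment, far below the other enzymes of the same pathway. In the GENCODE v44 annotation, 89.8% of the 1640 bases of its canonical transcript are also covered, on the same strand, by exons of another protein-coding gene, ENSG00000285043. That gene was listed at 12.6 to 68.5 normalised reads in the 12 libraries. Reads that fall on both genes may have been left out by the counting, and the effect on ALDOA was not tested, so its values are given as uncertain. GAPDH and ALDOC are overlapped over 32.8% and 18.2% of their canonical transcripts by RNAs of the opposite strand, and the strand setting of the counting is not stated. The pseudogene TPI1P1 reached at most 1.89% of the reads of TPI1.

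**Figure D1:**
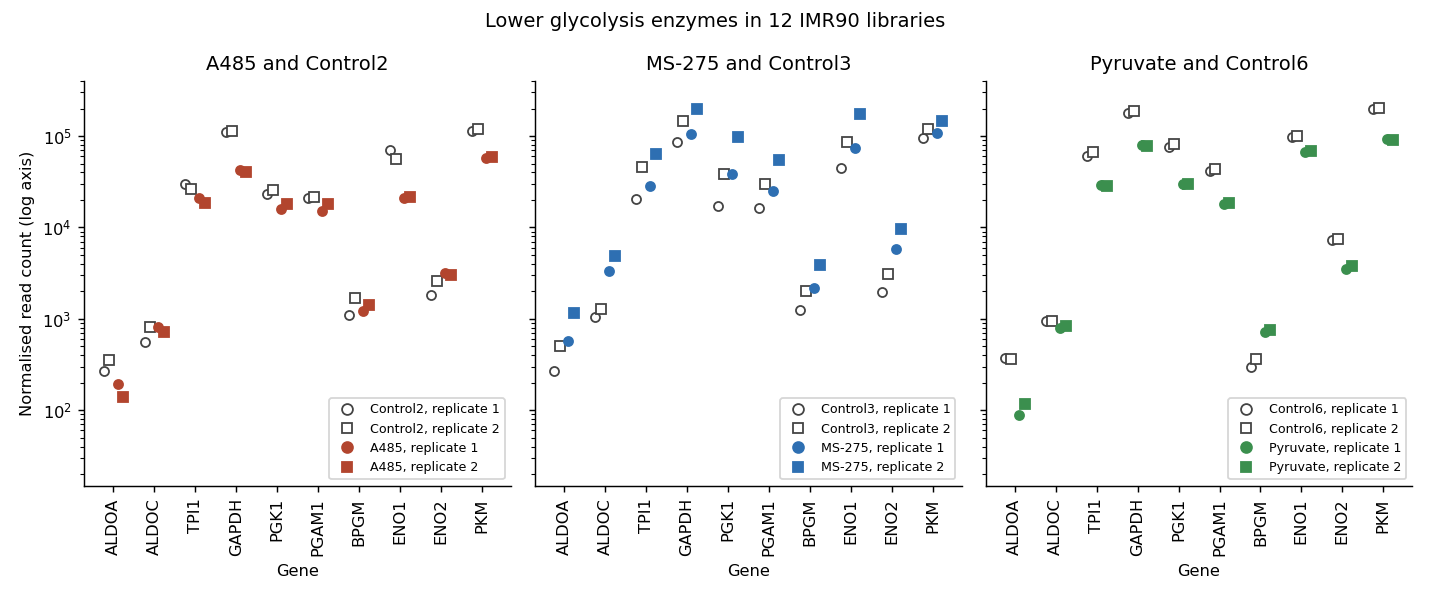
Normalised read count (log axis) of each enzyme gene in the 12 IMR90 libraries, in reaction order, with 1 panel per experiment, open symbols for control and filled symbols for treated libraries, circles for replicate 1 and squares for replicate 2. In the A485 panel ENO1 and GAPDH fall clear of their controls, in the MS-275 panel the square lies above the circle of the same group for each gene, and in the pyruvate panel BPGM (295 and 366 in Control6, 714 and 758 with pyruvate) is the one gene whose treated libraries lie above the controls.

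The comparison of A485 with Control2 asked what inhibition of p300 did to these genes. Enolase 1 and glyceraldehyde-3-phosphate dehydrogenase fell to 0.336 and 0.367 of their control means. ENO1, which makes phosphoenolpyruvate, was at 70330 and 56379 normalised reads in Control2 and at 21045 and 21574 with A485. Both treated libraries lay far below both controls, and the log2 fold change was -1.56 (SE 0.21, limma with Benjamini-Hochberg adjustment, adjusted p = 0.0100). GAPDH, the enzyme that makes the NADH of the pathway, was at 110752 and 114026 in Control2 and at 42426 and 39956 with A485, without overlap. Its log2 fold change was -1.45 (SE 0.22, adjusted p = 0.0139 in limma).

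A gene was called when the Benjamini-Hochberg adjusted p was under 0.05 and the log2 fold change exceeded 1 in size, and 2 of the 10 members were called lower, against 7.06% of the 16084 genes tested. All 10 members passed the filter on low values in each of the 3 comparisons. PKM, the pyruvate kinase gene, lay just inside the limit of size, with 113633 and 119019 reads in Control2 and 57680 and 58876 with A485. Its log2 difference was -0.997 with an adjusted p of 0.0430 in limma, and at a fold limit of 0.58 it was called as well.

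The triose steps showed smaller differences. PGK1, which makes the first ATP, was at 23057 and 25423 reads in Control2 and at 15949 and 18151 with A485, a log2 difference of -0.51 (SE 0.18). TPI1 was at 29629 and 26474 against 21084 and 18331 (log2 difference -0.51, SE 0.19). PGAM1, the phosphoglycerate mutase, was at 21039 and 21513 against 15135 and 18094 (log2 difference -0.36, SE 0.18). None of these 3 passed the test, although their groups did not overlap. ALDOA differed by -0.92 (SE 0.33, adjusted p = 0.127 in limma) and carries the caution above.

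The remaining genes did not share this direction. ENO2 was at 1833 and 2619 reads in Control2 and at 3139 and 3007 with A485, the only member whose treated libraries both lay above the controls (log2 difference 0.49, SE 0.22, adjusted p = 0.190 in limma). ALDOC (555 and 814 against 811 and 713) and BPGM (1112 and 1690 against 1219 and 1428) overlapped between the groups. Both treated libraries lay below both controls in 7 of the 10 members, against 30.7% of all genes. They lay above both controls in 1 of the 10, against 4882 of all 16084 genes. The median log2 fold change of the members was -0.51, beside 0.0088 for all genes.

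Other genes moved in the same libraries. Of the 9 fibroblast markers, 8 were called lower, and their summed level was 428385 to 502190 with A485 and 1359628 to 1517074 in Control2. Whether this had a part in the result was not tested, and in bulk RNA fewer cells of a type and less RNA per cell cannot be told apart. With quantile normalisation, which put the all-gene median at 0.12, the median of the members was 0.018. There 751 of 16084 genes were called higher and 1011 lower, but neither ENO1 (-0.79) nor GAPDH (-0.54) was called. With equal library totals, which put the all-gene median at 0.40 and turned the split of all calls from 532 higher and 1135 lower to 1669 higher and 915 lower, both were still called and the median of the members was -0.12. As each library was left out, the log2 fold change ranged from -1.723 to -1.404 for ENO1 and from -1.492 to -1.405 for GAPDH. Such fits leave a single library in a group, so the genes they called are not named. Their calls appear only as counts, in the closing section.

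**Figure D2:**
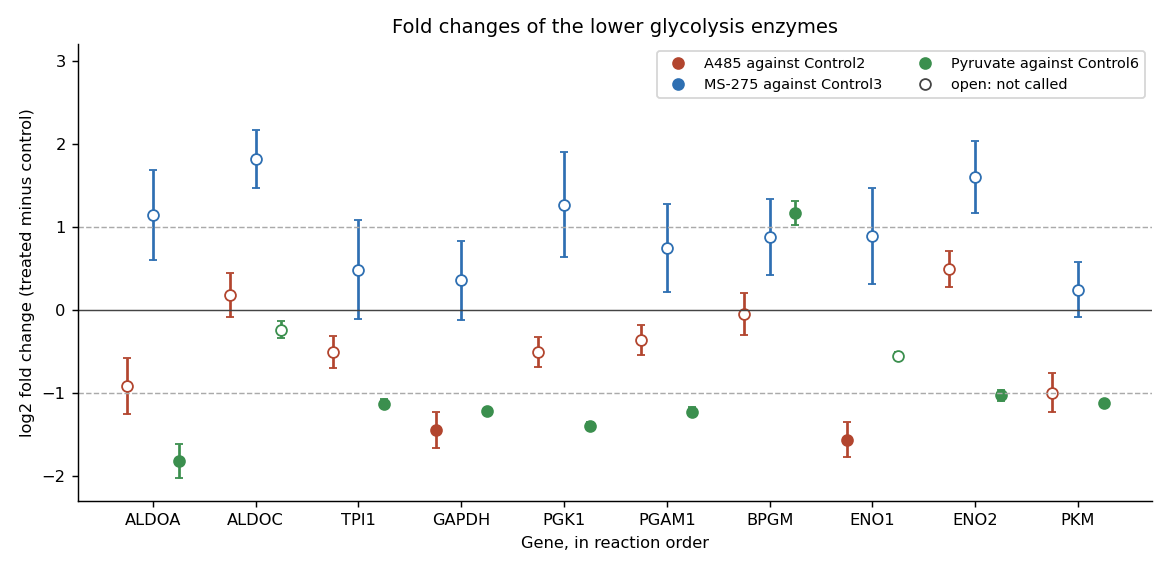
The log2 fold change (treated minus control) of each gene in reaction order for A485, MS-275 and pyruvate, with bars of 1 limma standard error, filled points for called genes and dashed lines at a size of 1. All 10 MS-275 points lie above 0 with long bars, 9 of the 10 pyruvate points lie below 0 with short bars, and of the A485 points only GAPDH and ENO1 are filled.

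The comparison of MS-275 with Control3 asked the same of class I deacetylase inhibition. All 10 genes were higher in the mean and within both replicate numbers, and whether any was called depended on how the spread between libraries was modelled. limma without a replicate block called 0% of the 15883 genes tested in either direction, with 1730 at an unadjusted p under 0.05, and edgeR called 0. DESeq2 called 348 genes higher (2.19%) and 227 lower, 1 of them a member, ALDOC. With the replicate number as a block, limma called 1230 genes higher (7.74%) and 953 lower, and 4 of the 10 members higher, ALDOC, ENO2, PGK1 and ALDOA. The median log2 fold change of the members was 0.88, beside -0.0084 for all genes.

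The libraries numbered 2 held more of every member than those numbered 1, in both groups. PGK1 was at 17143 and 37966 normalised reads in Control3 and at 38615 and 97521 with MS-275. ENO1 was at 44655 and 85313 against 74281 and 175869. The treated library numbered 1 thus lay below the control numbered 2 for ENO1, and only just above it for PGK1. The MS-275 values are therefore also given within each number, as a description, since the labels do not say that a number marks a shared culture or day.

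The brain-type aldolase and the neuronal enolase differed most. ALDOC was at 1051 and 1274 reads in Control3 and at 3377 and 4887 with MS-275, a log2 difference of 1.68 in number 1 and 1.94 in number 2. ENO2 was at 1953 and 3132 against 5816 and 9702, a log2 difference of 1.57 and 1.63. For both genes the treated libraries lay well above the controls, with fitted log2 fold changes of 1.81 (SE 0.35, adjusted p = 0.234) and 1.60 (SE 0.43, adjusted p = 0.312) in limma.

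PGK1 followed with a log2 difference of 1.17 and 1.36 within the numbers, and ALDOA with 1.10 and 1.18 (265 and 509 reads against 569 and 1154). BPGM, which makes 2,3-bisphosphoglycerate, was at 1249 and 1999 against 2150 and 3904, a log2 difference of 0.78 and 0.97. These 5 genes, ALDOA, ALDOC, PGK1, BPGM and ENO2, were those whose groups did not overlap, against 19.5% of all genes with both treated libraries above both controls.

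The other 5 overlapped. ENO1 differed by 0.73 and 1.04 within the numbers and PGAM1 (16299 and 30012 against 25259 and 54126) by 0.63 and 0.85. TPI1 (20328 and 45388 against 28696 and 62913) differed by 0.50 and 0.47. The smallest differences were those of the most abundant members. GAPDH (86943 and 147756 against 105704 and 198131) differed by 0.28 and 0.42 and PKM (95715 and 118347 against 108017 and 146951) by 0.17 and 0.31. In all, 10 of 10 members were higher within both numbers, against 38.6% of all genes, and 4 of 10 by more than 1, against 6.81%. Without MS-275 replicate 2 or without Control3 replicate 1 the fitted values of TPI1 and GAPDH fell below 0, as far as -0.10, and the median of the members ranged from 0.36 to 1.41 as each library was left out.

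**Figure D3:**
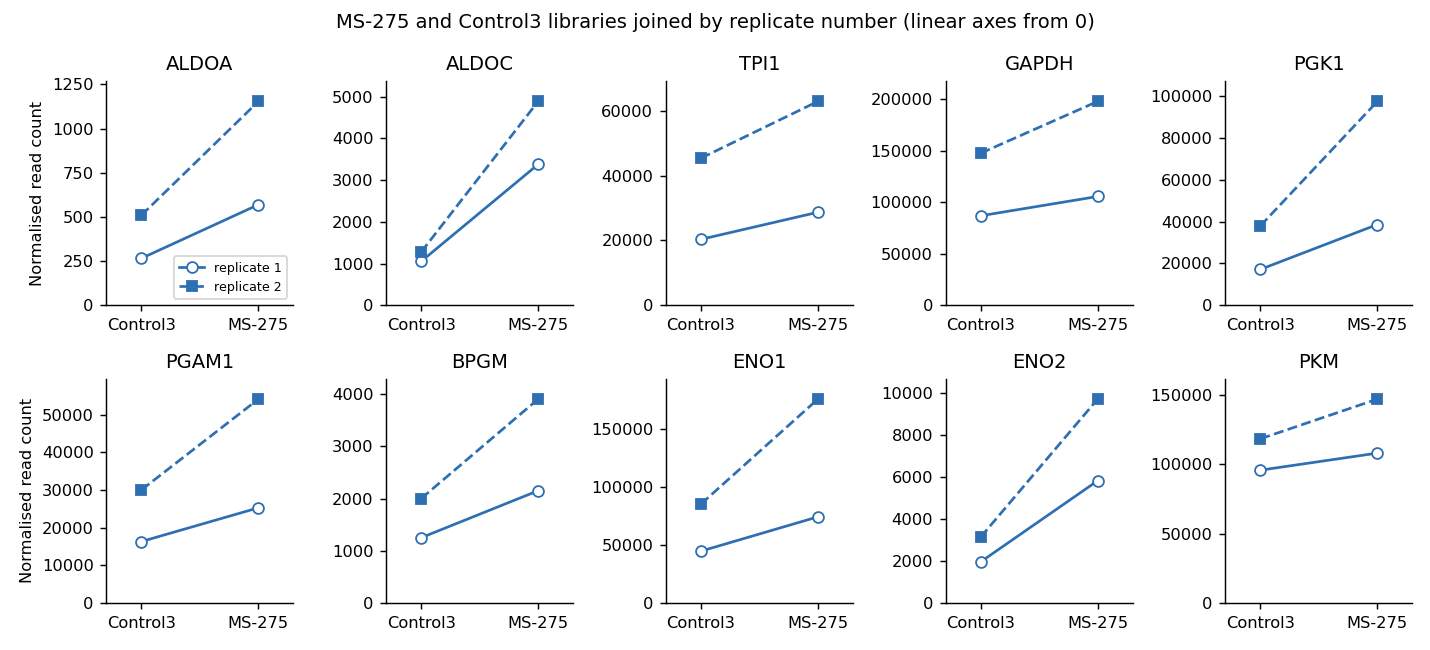
Normalised read count (linear axes from 0) of each gene in the Control3 and MS-275 libraries, with a line joining the libraries of the same replicate number. All 20 lines rise from Control3 to MS-275, and the replicate 2 line lies above the replicate 1 line in all 10 panels.

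The comparison of pyruvate with Control6 asked how the end product of these enzymes, added from outside, changed their transcripts. As deposited, 7 of the 10 genes were called lower, by 2.04- to 3.52-fold, and BPGM was called higher, by 2.23-fold. The libraries of a group were close together here. GAPDH was at 180691 and 186955 normalised reads in Control6 and at 78902 and 78531 with pyruvate (log2 fold change -1.22, SE 0.05, limma adjusted p = 1.10e-09). PKM was at 200192 and 200284 against 91722 and 91546 (-1.13). Both genes stood at less than 0.5 of the control in each treated library.

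PGK1 was at 76474 and 80973 reads in Control6 and at 29742 and 29912 with pyruvate, a log2 fold change of -1.40 (SE 0.05, limma adjusted p = 7.67e-10). TPI1 was at 60639 and 66749 against 29433 and 28725 (-1.13), and PGAM1 at 41465 and 43827 against 18113 and 18294 (-1.23). ENO2 was at 7242 and 7531 against 3490 and 3738 (-1.03). ALDOA was at 369 and 359 against 89.5 and 117 (-1.82), with the caution on its counts. All of these groups were far apart.

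ENO1 and ALDOC passed the adjusted p but not the limit of size: ENO1 was at 98162 and 100905 against 67639 and 68118 (-0.55), and ALDOC at 958 and 946 against 785 and 828 (-0.24). BPGM was the one gene called higher, from 295 and 366 to 714 and 758 reads (1.16, SE 0.14, limma adjusted p = 1.34e-05). The 7 genes called lower compare with 23.1% of the 12013 genes tested, and the 1 called higher with 31% of them. Both treated libraries lay below both controls in 9 of the 10 members, against 45.3% of all genes. They lay above both controls in 1 of the 10, against 5426 of all 12013 genes. The median log2 fold change of the members was -1.13, beside -0.0070 for all genes.

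In this experiment the fold change of all genes followed the GC content of the transcript. Over 11888 genes Spearman's rho was -0.72, as a description across genes, which are not independent replicates, against -0.11 for A485 and -0.02 for MS-275. With the genes cut into 5 bins of GC content, the median log2 fold change passed from 1.80 in the most AT-rich bin to -1.13 in the most GC-rich one. Most members are GC-rich, at 52.7% to 60.5%, and the exceptions are PGK1 (42.8%) and BPGM (43.1%). The share of reads from mitochondrial genes also differed, at 4.68% and 4.72% with pyruvate and 6.69% and 6.68% in Control6. What produced these differences was not tested.

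Each member was therefore set beside the 500 genes nearest to it in GC content. PGK1 stood apart: its neighbours had a median log2 fold change of 1.46, and 0.8% of them lay below the -1.40 of PGK1. Both annotated protein-coding transcripts of PGK1 have a GC content of 42.8% to 43.3%, so the position does not hang on the choice of transcript. BPGM, at 1.16, lay slightly below the median of its own neighbours (1.39), and 42.2% of them were lower still. The 4 protein-coding transcripts of BPGM span 43.1% to 48.2% GC. The bin medians passed from 1.20 (41.2% to 45.9% GC) to -0.16 (45.9% to 51.8%) over that range. The position of BPGM may therefore depend on the transcript chosen, which was not tested.

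The GC-rich members lay closer to their neighbours. ALDOA lay 0.69 below the median of genes of like GC content, PGAM1 0.58 below, GAPDH 0.40 below and TPI1 0.37 below. ENO2 and PKM lay 0.28 and 0.22 below, with 33.2% and 36.2% of their neighbours lower than they were. ENO1 and ALDOC lay above their neighbours, by 0.19 and 0.46. All these positions use the canonical transcript. Protein-coding transcripts span 47.4% to 63.4% GC for ENO1, 53% to 61.4% for ENO2 and 54.1% to 63% for PKM, and positions by other transcripts were not tested. In sum 8 of 10 members were below the median of their own neighbours and 2 above, with a median distance of -0.33.

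When the dependence on GC content and transcript length was removed from each library, PGK1 was the one member still called, at -2.86 (SE 0.04, limma adjusted p = 6.21e-12), against 13.2% of 11888 genes called lower. BPGM was then at 0.19 (adjusted p = 0.194 in limma), GAPDH at -0.22, TPI1 at -0.24, PKM at -0.13, ENO2 at -0.18, PGAM1 at -0.44 and ALDOA at -0.65. The sign turned for ENO1 (0.36) and ALDOC (0.73), and the median of the members was -0.20, beside 0.0057 for all genes. With equal library totals, which put the all-gene median at 0.30 and changed the split of all calls from 3726 higher and 2777 lower to 4402 higher and 1741 lower, the median of the members was -0.82. BPGM was then called higher, PGK1 and ALDOA lower, and ALDOC was at 0.07. With quantile normalisation (median of all genes -0.17) ALDOA alone was called, and it was lower. Over all 12013 genes that setting called 3143 higher and 3228 lower.

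**Figure D4:**
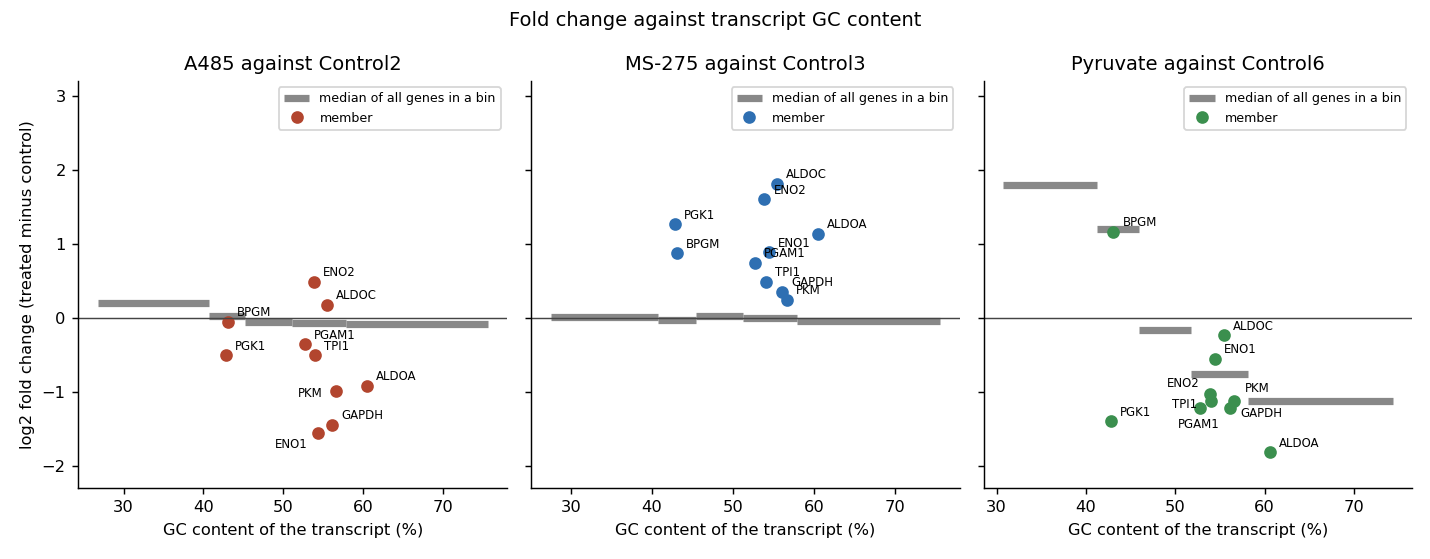
The log2 fold change of each gene (points) against the GC content of its transcript in percent, with grey bars for the median of all genes in each of 5 bins of GC content. In the pyruvate panel the grey bars step down from 1.80 to -1.13, most points lie near the bar of their bin, and PGK1 at -1.40 lies far below a bar at 1.20.

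The treatments were compared with each other as differences between their fold changes, each over the 8 libraries of a pair of experiments that share no control. A485 minus MS-275 was negative for all 10 members, with values from -0.93 to -2.45, but 0 of 10 were called lower, against 3.2% of 15130 genes. The largest was that of ENO1, at -2.45 (SE 0.66, limma adjusted p = 0.103). With the trend on length and GC content removed 4 were called lower, ALDOA, ALDOC, GAPDH and ENO1, against 5.43% of 14916 genes. With the replicate block 8 were called lower, against 12.5% of 15130 genes.

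Pyruvate minus MS-275 was called lower for 6 of 10 members, against 15.9% of 12005 genes: ALDOA (-2.96), PGK1 (-2.67), ENO2 (-2.63), ALDOC (-2.05), PGAM1 (-1.97) and PKM (-1.37). With the trend on length and GC content removed 5 of these, all but PKM, were called, against 13.7% of 11880 genes. With the replicate block 9 were called lower, against 23.2% of 12005 genes. As each library was left out, the median difference of the members ranged from -1.28 (without MS-275 replicate 2) to -2.25 (without MS-275 replicate 1).

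Pyruvate minus A485 was called lower for 1 member, against 20.5% of 11993 genes, and higher for 2, against 33.8%. ENO2, which stood on opposite sides of 0 in the 2 experiments, differed by -1.52 (SE 0.23, limma adjusted p = 0.000583). BPGM (1.22) and ENO1 (1.01) were higher under pyruvate than under A485. With the trend removed the calls were PGK1 lower (-2.32), against 15.9% of 11868 genes, and GAPDH (1.18) and ENO1 (1.88) higher, against 22.8%, so ENO1 was called in both fits, and ENO2 and BPGM in the first alone.

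The isozyme pairs gave a measure that does not depend on the scaling between libraries. For every 100 reads of ENO1 there were 2.61 and 4.65 reads of ENO2 in Control2 and 14.9 and 13.9 with A485, a log2 difference of 2.05 (SD 0.59 in Control2 and 0.07 with A485, n = 2). The same ratio was 4.37 and 3.67 in Control3 and 7.83 and 5.52 with MS-275, and 7.38 and 7.46 in Control6 and 5.16 and 5.49 with pyruvate. The enolase ratio was thus higher with both inhibitors and lower with pyruvate, without overlap in any of the 3. How often other ratios do not overlap was not computed. Single genes without overlap were common: 4882 above and 4930 below of 16084 with A485. The counts were 3105 and 3071 of 15883 with MS-275, and 5426 and 5442 of 12013 with pyruvate.

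BPGM, a paralogue of PGAM1 that diverts the product of GAPDH, was set against PGAM1 in the same way, a ratio added after the values were seen. For every 100 reads of PGAM1 there were 0.711 and 0.834 of BPGM in Control6 and 3.94 and 4.15 with pyruvate, a log2 difference of 2.39. PGAM1 (52.7% GC) and BPGM (43.1%) lie at different points of the GC trend of that experiment, and with the trend on length and GC content removed the log2 difference was 0.63. With A485 the ratio was 8.05 and 7.89 against 5.28 and 7.86, and with MS-275 it overlapped with its control.

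For every 100 reads of ALDOA there were 207 and 227 of ALDOC in Control2 and 424 and 510 with A485, 396 and 250 in Control3 and 593 and 423 with MS-275, and 259 and 263 in Control6 and 878 and 706 with pyruvate. The ratio was higher in the treated group each time, and it carries the caution on ALDOA. ALDOC (55.5% GC) and ALDOA (60.5%) also lie at different points of the GC trend of the pyruvate experiment. With 2 libraries a group the two-sided exact permutation test could not go below p = 0.333, which was its value in 8 of the 9 ratio comparisons, and 0.667 for BPGM to PGAM1 with MS-275.

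**Figure D5:**
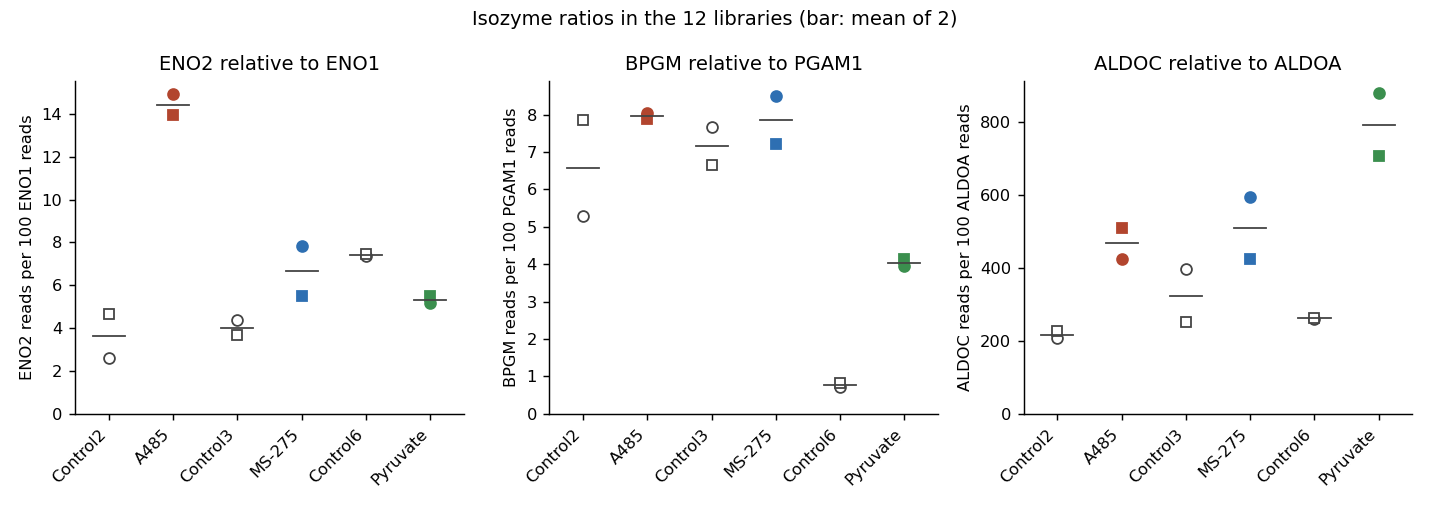
Reads of ENO2 per 100 ENO1 reads, BPGM per 100 PGAM1 reads and ALDOC per 100 ALDOA reads in each of the 12 libraries (linear axes from 0), with circles for replicate 1, squares for replicate 2 and a bar for the mean of 2. The A485 libraries stand highest for the enolases at 14.9 and 13.9, and Control6 stands lowest for BPGM at 0.711 and 0.834.

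The genes around the pathway were described by lists, and their pyruvate values are as deposited, with the GC trend, unless it is said to be removed. The counts called in these lists stand beside those over all genes. With A485, 532 of 16084 genes were called higher and 1135 (7.06%) lower. With pyruvate 31% of 12013 genes were called higher and 23.1% lower. With the trend removed 1854 of 11888 were called higher and 1575 (13.2%) lower. Of the genes of glucose uptake and upper glycolysis, 1 was called higher and 3 lower of 12 with A485 and 1 higher and 6 lower of 11 with pyruvate, where their median was -1.06. With MS-275 none of 12 was called, 10 were above 0 and their median was 0.87. SLC2A1, the glucose transporter GLUT1, was at 5843 and 8115 reads in Control3 and at 31892 and 49854 with MS-275 (2.53, limma adjusted p = 0.174), and SLC2A3 was at 3701 and 3969 against 9868 and 13912, which did not pass the test. With A485 SLC2A1 differed by -1.03 (limma adjusted p = 0.0820) and with pyruvate it fell by 1.66 on the log2 scale, or by 1.05 with the trend removed, where 3 genes of the list were called lower and none higher.

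Branch enzymes draw carbon away from the members, into serine at 3-phosphoglycerate or into the pentose phosphate pathway. With A485, 9 of 11 were called lower and 1 higher, with a median of -1.57. PSAT1, of serine synthesis, fell from 14861 and 11949 reads to 1622 and 1313 (log2 fold change -3.19), and TKT, the transketolase of the pentose phosphate pathway, fell by 2.31 on the log2 scale. With pyruvate 5 of 11 were called higher and 2 lower, and PSAT1 rose from 770 and 856 reads to 10089 and 10037 (log2 fold change 3.63, or 2.52 with the trend removed, where 7 of the list were called higher and none lower). With MS-275 none was called, and PSAT1 differed by -1.42. PSAT1 thus stood opposite to PGK1 under pyruvate, and differed in the same direction under A485.

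Of the genes of pyruvate and lactate handling, 1 was called higher and 1 lower of 16 with A485, none with MS-275, and 6 higher and 5 lower with pyruvate. LDHA, which reduces the product of the members to lactate, was at 38844 and 37640 reads in Control2 and at 24674 and 17241 with A485 (-0.89, limma adjusted p = 0.0598). It was at 24328 and 51223 against 57928 and 111103 with MS-275, a log2 difference of 1.25 and 1.12 within the numbers. With pyruvate LDHA was at 77153 and 81882 against 79402 and 79856, so that it overlapped where 7 of the members were called lower. With the trend removed LDHA was called lower, at -1.24 (limma adjusted p = 1.03e-10), and the list had 2 genes called higher and 5 lower. SLC16A3, the lactate exporter MCT4, fell from 17516 and 18198 to 4568 and 4734 with pyruvate (-1.94), and with the trend removed it was at -0.67 and not called.

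Of the HIF targets outside glycolysis, 16 of 18 were above 0 with MS-275, with a median of 0.81 and none called. With A485, 4 of 17 were called lower and 1 higher. With pyruvate 4 of 17 were called higher and 3 lower, against 31% and 23.1% of all genes. P4HA1, a collagen prolyl hydroxylase subunit, rose from 1293 and 1517 to 12103 and 12022 reads (3.11, or 1.56 with the trend removed) while PGK1 fell. With the trend removed the HIF list had 4 called higher, P4HA1 among them, and 3 lower. Those called lower, as PGK1 was, were P4HA2 (-2.21), AK4 (-1.60) and INSIG2 (-1.13). Of the HIF and MYC factors, MYC (-2.82) and EPAS1 (-2.71) were called lower with A485, and HIF1A (1.06) higher and HIF1AN (-1.45) lower with pyruvate. With the trend removed HIF1A was at -0.75 and not called, and HIF1AN (-2.10) and VHL (-1.11) were called lower. Of the PKM splicing factors none was called with either inhibitor, and 3 of 4 were called higher with pyruvate, or 1 of 4 with the trend removed. ENO3, the muscle enolase, was the only other isozyme of these steps with enough reads to test, and was called lower with pyruvate (142 and 143 reads against 45.2 and 106), but not with the trend removed (-0.015).

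Across the 12 libraries, with each gene centred within its experiment, PGK1 had the closest relation to the mean of the other 9 members (Pearson's r = 0.98) and BPGM the least (0.10), with ALDOC at 0.63 and the others between 0.74 and 0.94. Among 9759 other genes the 5 with the highest r to the mean profile of the members were SLC16A3 (0.98), FKBP1A (0.98), ENSG00000186076 (0.97), CSNK1E (0.97) and LRRC42 (0.96). These are descriptions over 12 libraries that share their treatments and their scaling. The pyruvate values entered as deposited, with the GC trend, and r with the trend removed was not computed. In the pyruvate experiment BPGM was at 1.16, beside a median of 1.39 for its neighbours in GC content.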

How the data were processed

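Bulk RNA-seq libraries of 12 IMR90 samples were analysed. The 8 mouse muscle libraries of the series were not used here. According to the submitters' processing notes, the authors used Trim Galore (0.6.10), HISAT2 (2.2.1), SAMtools (1.7), featureCounts (2.0.6) and DESeq2 (1.34.0) on build hg38. The values deposited by the authors are a signal, that is, gene counts scaled with the size factor of their library. Neither the annotation nor the strand setting of the counting is given in the sources used here, so reads of overlapping, antisense or pseudogene partners cannot be told apart. Dividing by the smallest step of a library gave whole reads for 100% of values (tolerance 0.001), and these were taken as the recovered reads.

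Groups were taken from the sample titles. Within each experiment, genes whose mean over its 4 libraries reached 10 were tested on log2(value + 1), a scale that understates changes of low genes, with limma (3.58.1, R 4.3.3), an intensity trend and Benjamini-Hochberg adjustment. A call needed an adjusted p under 0.05 and a log2 fold change above 1 in size. Differences between treatments were a contrast over 8 libraries. Isozyme ratios used a two-sided exact permutation test (SciPy 1.17.1). Transcript length, GC content and overlaps came from GENCODE v44, which matched 98.4% to 99.0% of the listed genes, and promoters from RefSeq (GRCh38.p14). The GC correction removed natural splines of 5 degrees of freedom in GC content and log2 length. The 500 genes nearest in GC content were a description added later. edgeR (4.0.16) and DESeq2 (1.42.0) were run on the recovered reads as alternatives. Scripts were tested on simulated data.

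The members and gene lists were chosen with earlier results of these data known. All 10 members are named, with LDHA, SLC2A1, the 3 genes of the uptake, lactate, branch and HIF lists with the smallest p in each comparison, and the 5 genes most like the mean member profile, except 1 gene not reported here; other genes named for a list were chosen after their values were seen. Replicates of a group differed by more than sampling noise (chi-square per gene 4.54 to 458) and were kept apart. Same-numbered libraries deviated together with r = 0.32 (A485), 0.73 (MS-275) and 0.0020 (pyruvate), and no label says what a number marks, so the numbers were not used as pairs in the main fits. Read counting error is small at these depths, and 2 libraries a group limit the precision.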

Additional observations from a re-analysis of the deposited data

How the results depend on the processing

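Of the 99 recomputed summaries that kept all libraries, 80 stayed within the margin set for them, and the cause was not tested for the others. With A485, quantile normalisation called 0 members and gave a median of 0.018, with opposite signs for TPI1 (0.093), PGK1 (0.028), PGAM1 (0.17) and BPGM (0.0086). Equal totals gave a median of -0.12, with opposite signs for PGAM1 (0.031) and BPGM (0.34). With pyruvate, equal totals called 3 members (median -0.82, ALDOC 0.071) and quantile normalisation 1 (median -0.61). Over all 12013 genes, equal totals called 4402 higher and 1741 lower, and quantile normalisation 3143 and 3228. The GC and length correction, with or without the replicate block, called 1 member (median -0.20, ALDOC 0.73, ENO1 0.36). The correction alone, applied to ratios and lists after seeing the data, moved the log2 difference of BPGM to PGAM1 to 0.63, LDHA to -1.24 and HIF1A to -0.75. With MS-275, DESeq2 called 1 member. The replicate block, which takes the number as a factor, called 4 members (ALDOC, ENO2, PGK1 and ALDOA), with or without the GC correction, and 1230 genes higher and 953 lower in all, against 0 without it. It called 8 members lower for A485 minus MS-275, also with the GC correction, which alone called 4. The block moved no other count of members past 1.5 times. For pyruvate minus MS-275, quantile normalisation called 3 members lower, against 2158 of 12005 genes.

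As each library was left out, members called with A485 ranged from 0 to 1, those that differed between A485 and MS-275 from 0 to 1, and between pyruvate and MS-275 from 2 to 9. The sign turned for ALDOC (-0.10 to 0.45) and BPGM (-0.36 to 0.25) with A485, and for TPI1 (-0.10 to 1.06) and GAPDH (-0.10 to 0.81) with MS-275.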
